A study of Mus musculus with 2 samples.

Results

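Mid-body peaks are places inside a gene, away from both of its ends, where RNA recovered with an antibody against the RNA-binding protein ELAVL2 was denser than in the input RNA of the same tissue. A peak was counted when it overlapped exactly 1 gene, the gene was at most 100 kb long and on an autosome, and the peak's summit lay between 10% and 90% of the gene, measured along its strand. Of 28332 peaks called, 6046 met this rule, in 2416 genes. Of the peaks that overlapped exactly 1 autosomal gene of that length (12727), 531 had their summit in the first 10% of the gene and 6150 in the last 10%. The rule used position and gene length, and no enrichment value beyond the calling threshold that every peak in the list had passed. It was set with earlier results of these data known.

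ELAVL2 belongs to the ELAVL (Hu) family, RNA-binding proteins with RNA recognition motifs that attach to stretches rich in U or in A and U. Family members are best known for binding the 3′ untranslated regions of messenger RNAs, where they alter stability and translation, and they also bind introns and take part in splicing and polyadenylation. In the newborn mouse ovary, oocytes are in meiotic prophase, germ cell cysts break apart and primordial follicles form.

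The study compared RNA pulled down with 5 ug of the ELAVL2 antibody (RNA immunoprecipitation, RIP) with input RNA, which was 5% of the starting lysate. Both came from frozen whole ovaries of newborn (P0) mice, of which 100 were homogenised together. Strain and genotype are not given in the sources used here, and no pulldown with a control antibody was analysed here. There was 1 RIP sample and 1 input sample, so no difference below has a replicate check. The lysate was not crosslinked by any step the labels name, and the pooled organ holds germ cells, follicle cells and stroma, so a peak cannot be assigned to a cell type.

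Depth was 13787676 tags for RIP and 19479946 for input after duplicate tags were dropped, which was 7.98% and 9.26% of the aligned tags. Each tag was extended to 50 bp and at most 1 tag was kept per position and strand, so the RIP pileup (the number of extended tags over the summit) could not pass 100. The fold is the authors' enrichment, the RIP pileup plus 1 over the local input level plus 1, and the input level was recovered from it. Input levels are on the RIP scale, on which 1 input tag is worth 0.708 and the genome-wide background is 0.369. A level can be an average over a window of 1000 or 10000 bp. An input of at most 1 tag therefore describes a level below, not a count of tags.

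Sequence could be read for the few mid-body peaks that lie wholly inside a RefSeq window running from 250 bases before to 50 bases after an annotated gene start (GRCm38.p6, the mm10 coordinates). There were 7 such peaks, and 12 touched a window at all. These 4 are shown because they range from T-rich to T-poor on their own gene's strand, and bases of that kind are what the ELAVL family binds. Each is written 5′ to 3′ on that strand, with T for U, and capitals mark any match to TTTTT or ATTTA.

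B930036N10Rik: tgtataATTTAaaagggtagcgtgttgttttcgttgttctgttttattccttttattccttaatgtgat
Nsmce1: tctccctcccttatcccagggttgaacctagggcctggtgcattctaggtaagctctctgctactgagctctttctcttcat
Pld6: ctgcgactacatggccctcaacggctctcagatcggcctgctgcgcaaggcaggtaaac
Csnk1e: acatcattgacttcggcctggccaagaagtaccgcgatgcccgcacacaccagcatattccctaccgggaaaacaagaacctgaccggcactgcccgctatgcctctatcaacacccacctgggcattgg

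The peak in the clone-named gene B930036N10Rik (chr1:171503283-171503351, minus strand) was the T-rich one, with 52.2% T and the only ATTTA among the 7. That motif was present on the gene strand in 6.50% of all windows at the same offset and length. Its pileup was 22 against an input level of 2.34, a fold of 6.90. The peak in Nsmce1 (chr7:125487961-125488042), which encodes a subunit of the SMC5/6 complex, had 34.1% T and 14 tags against 2.12, a fold of 4.80. The peak in Pld6 (chr11:59787212-59787270), which encodes the mitochondrial nuclease of piRNA production in germ cells, had 16.9% T, 19 tags and an input level of 2.63, a fold of 5.52. The peak in Csnk1e (chr15:79426258-79426387), a casein kinase gene, had 16.9% T and the highest tag number of the 4, 48 against 12.7, a fold of 3.57. No run of 5 T was present on the gene strand of any of the 7 peaks, a motif held by between 5.41% and 14.9% of windows at the same offsets. TTTATTT was found in none on either strand, and TTTTT on the opposite strand in Aplf alone. The windows sit at gene starts, so these 7 say nothing of the letters under the other peaks, whose sequence was not analysed here. The start is not always that of the named gene. Of the 4 shown, the windows of B930036N10Rik and Csnk1e belong to Alyref2 and Gm16059, which lie on the opposite strand.

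Mid-body peaks were moderate in height and enrichment. The median pileup was 25 tags (quartiles 14 and 37, range 4 to 93), the median input level was 6.37 (quartiles 2.12 and 13.4), and the median fold was 3.43 (range 1.57 to 18.7). Their median length was 76 bp. A fold of at least 5 was reached by 1339 of them, 22.1% (exact 95% binomial interval 21.1 to 23.2), against 26.1% of all peaks in the list. All binomial and Poisson intervals given here cover counting error only, since amplified tags carry no molecular identifiers. Those over peaks also take each peak as a separate draw, which neighbouring peaks of a gene are not, so they are too narrow and no class difference is rested on them.

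Position in the gene and gene length both went with these values. Peaks in the last 10% of the same length of gene had more tags (median 36) over a higher input (12.1), and their median fold was lower, at 2.73. Peaks in the middle of genes above 100 kb, 2854 in number, had fewer tags (median 13) over an input of 1.42, and their median fold was 4.68. The share with a fold of at least 5 was 8.80% (8.10 to 9.53) in the last 10% and 43.3% (41.4 to 45.1) in the long genes. At the length limit the step was smaller: mid-body peaks in genes of 50 to 100 kb had a median fold of 4.03 and those in genes of 100 to 200 kb one of 4.38, and the shares with at most 1 input tag were 20.8% and 29.5%.

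The differences in fold between these classes went with the input level. An input of at most 1 tag lay under 13.9% (13.0 to 14.8) of mid-body peaks in genes of at most 100 kb, under 3.50% (3.05 to 3.99) of last-10% peaks and under 36.8% (35.1 to 38.6) of mid-body peaks in longer genes. At matched input the medians drew together. With at most 1 input tag, the median fold was 5.85 for the 840 mid-body peaks, 5.86 in the last 10% and 5.85 in longer genes. With 1 to 5 input tags, it was 4.96, 4.96 and 4.85. With 5 to 15 tags, it was 3.34, 3.36 and 3.39, and above 15 tags 2.31, 2.29 and 2.38. The input level is also the denominator of the fold, so the 2 are tied by the formula. A peak needs a larger fold to pass the calling threshold where the input is low. The part these play in the differences, and in the closeness at matched input, was not tested.

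**Figure D1:**
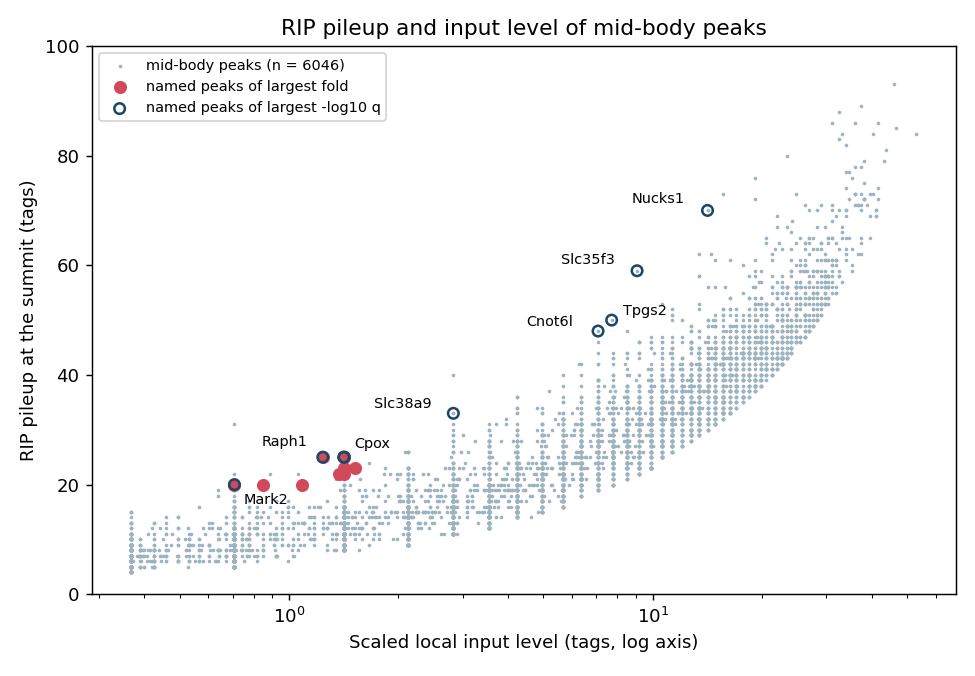
RIP pileup in tags (vertical axis) against the local input level in scaled tags (horizontal axis, logarithmic) for each of the 6046 mid-body peaks, 1 point a peak. Filled red points are the 10 named peaks that led by fold among those with 20 tags or more, and open dark points 9 of those that led by −log10 q; the first sit at input levels from 0.708 to 1.52, and the second reach 70 tags.

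Inside the mid-body itself the peaks were denser toward the 3′ end. In steps of 10% from the 5′ limit to the 3′ limit, the numbers of peaks were 380, 523, 566, 627, 718, 791, 947 and 1494. The median fold over the same 8 steps went from 4.15 to 3.02 and the median input level from 2.83 to 9.20. Summits between 70% and 90% made up 2441 peaks, 40.4% (39.1 to 41.6). The gradient was steeper among peaks with input coverage: 42.7% (41.4 to 44.1) of the 5206 peaks above 1 input tag lay there, against 25.7% (22.8 to 28.8) of the 840 at or below it. The low-input peaks were spread along the gene, with between 80 and 117 in each of the 8 steps. They also lay in longer genes, with a median of 44.4 kb against 31.3 kb, and 75% of them were in genes with an approved symbol, against 88.3%.

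**Figure D2:**
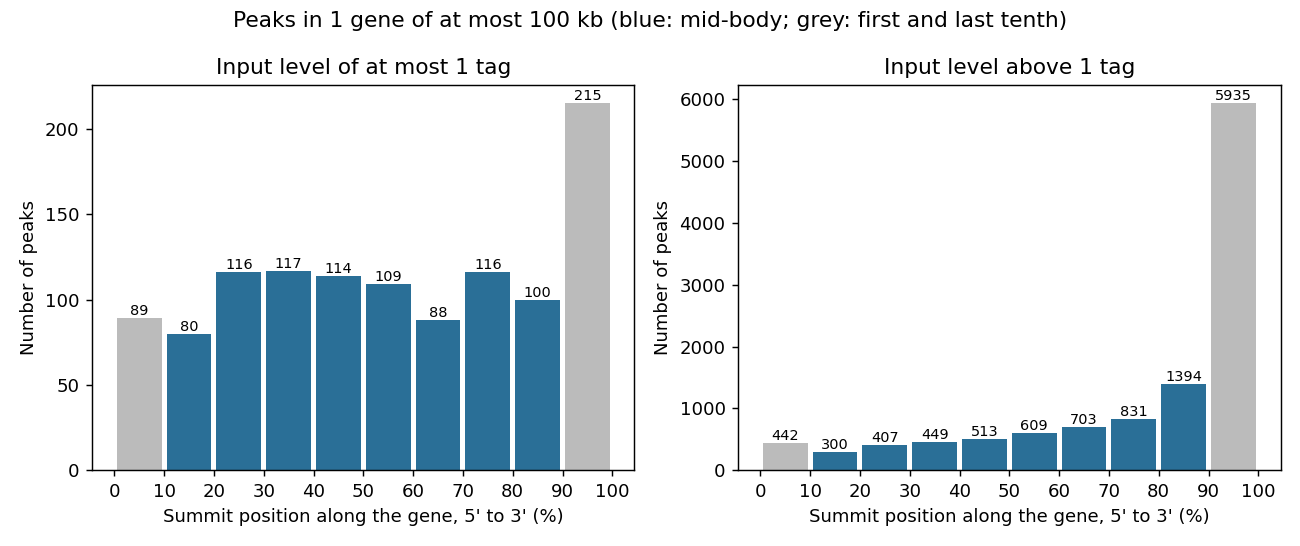
Number of peaks in steps of 10% of the gene, 5′ to 3′, for peaks with more than 1 input tag and for peaks with at most 1, in autosomal genes of at most 100 kb; coloured bars are the mid-body and grey bars the first and last 10%. Above 1 input tag the count grows from 300 to 1394 over the mid-body and stands at 5935 in the last 10%, while at or below 1 tag it runs from 80 to 117 and reaches 215.

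Distance to the 3′ end gave the same order. The median distance from the summit to the annotated 3′ end was 10.8 kb, and 1856 peaks (30.7%) lay within 5 kb of it. The 405 peaks within 1 kb had a median fold of 2.84 over an input of 11.3. The 1772 peaks more than 20 kb away had a median fold of 4.10 over an input of 3.54. Among genes of at most 5 kb, 507 peaks in 280 genes were mid-body, with a median pileup of 33 over an input of 10.6. Among genes of 50 to 100 kb, 1838 peaks in 654 genes were, with a median pileup of 19 over 3.54.

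The gene bodies in the authors' table do not always end where RefSeq's do. Of the 6046 peaks, 5841 lie in genes whose symbol matched a RefSeq gene, and 5280 of these (90.4%, 89.6 to 91.1) also lay between 10% and 90% of the RefSeq body. A further 391 (6.69%, 6.07 to 7.37), in 180 genes, fell in the last 10% of it, and 115 peaks in 53 genes lay beyond its 3′ end. Those 391 peaks had the height of 3′ end peaks, a median pileup of 34 over an input of 11.3. When the same rule was applied to RefSeq bodies throughout, 6535 peaks were mid-body, and 5026 of the present ones (83.1%) were among them. RefSeq's symbols gave 2083 protein-coding genes, 120 lncRNA genes, 94 pseudogenes and 14 transcribed pseudogenes among the 2314 genes matched.

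The mid-body peaks that led by fold, among those with at least 20 tags in genes with an approved symbol, rested on very little input. Mark2, a kinase that controls microtubule stability, had the largest: 20 RIP tags (exact 95% Poisson interval 12.2 to 30.9) against an input of 0.708, a fold of 12.3, at chr19:7284662-7284722, 86.0% along the gene. Raph1, which encodes the actin regulator lamellipodin, had 25 tags (16.2 to 36.9) against 1.24, a fold of 11.6, over an 847 bp peak at chr1:60516277-60517123. Wbp2nl, a gene known for its sperm protein, had 20 tags against 0.849 at chr15:82311784-82311918, a fold of 11.4. The input level, which is not a count of tags, was worth about 1 tag in Mark2 and Wbp2nl and under 2 tags in Raph1. The intervals of the 3 pileups overlap, so the order of these peaks is not settled by counting.

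Cpox, an enzyme of heme synthesis, and St6gal2, a sialyltransferase, had equal values: 25 tags against 1.42, a fold of 10.8, at chr16:58675284-58675421 and chr17:55472531-55472774. Rabep1, which encodes an effector of the endosomal GTPase RAB5, had 20 tags against 1.09 and a fold of 10.1 (chr11:70912774-70912851). Satb1, which encodes a chromatin organiser, had 23 tags against 1.42 and a fold of 9.94 (chr17:51809043-51809110). Fkbp6, a co-chaperone gene needed in meiosis and the piRNA pathway, had 22 tags against 1.38 and a fold of 9.68 (chr5:135334887-135335181). Katnal2, a relative of the microtubule-severing katanins, and Mut, the mitochondrial methylmalonyl-CoA mutase, both had a fold of 9.52, from 22 tags against 1.42 and 23 against 1.52. All 10 folds depend on the pseudocount of 1: without it they would lie between 15.1 (Mut) and 28.3 (Mark2). These 10 peaks ranged from 14.4% (Mut) to 86.0% (Mark2) of the gene and all stayed between 10% and 90% of the RefSeq body. The authors' table also pairs the peaks of Mark2, Raph1, Rabep1, Satb1 and Mut with a neighbouring gene they do not overlap.

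Ranking by the authors' −log10 q brought in taller peaks over covered transcripts. Slc35f3, a member of a solute carrier family, led at 21.6, with 59 tags (44.9 to 76.1) against an input of 9.06, a fold of 5.96, over a 1202 bp peak at chr8:126376985-126378186. Nucks1, a nuclear DNA-binding protein gene, had 70 tags against 14.2, a fold of 4.68 and a −log10 q value of 19.8. Slc38a9, the lysosomal arginine sensor of the mTORC1 pathway, combined 33 tags with an input of 2.83, a fold of 8.87 (−log10 q 18.1) (chr13:112714183-112714261). Tpgs2, which encodes a subunit of a tubulin polyglutamylase, had 50 tags against 7.71, and Cnot6l, a deadenylase of the CCR4-NOT complex, had 48 against 7.08, with folds of 5.85 and 6.07. Raph1, Cpox, St6gal2 and Mark2 were among the 10 peaks of both rankings.

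None of the 5 longest mid-body peaks in named genes was mid-body by RefSeq's gene bodies: 4 lay in the last 10% and 1 beyond the 3′ end. Lin28a, which encodes the RNA-binding protein that blocks let-7 maturation, held the longest peak of the list, 2030 bp at chr4:134003351-134005380. It had 58 tags against 13.4, a fold of 4.08, and its summit lay at 89.8% of the gene, 1.58 kb from the annotated end. The peak itself ran past the 90% limit in the authors' gene body too, nearly to its 3′ end at chr4:134003330. Slc35f3 (1202 bp, above), Mapk6 (1126 bp, the atypical MAP kinase ERK3) and Rab22a (988 bp, an endosomal GTPase) fell with Lin28a in the last 10% of the RefSeq body. Dfna5 (854 bp, gasdermin E) lay beyond its 3′ end. Folds of the last 3 were low to moderate: 2.098 for Mapk6 with 59 tags against 27.6, 2.35 for Rab22a with 63 against 26.2, and 3.59 for Dfna5 with 61 against 16.3.

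Mid-body peaks were unevenly shared among genes. Of the 2416 genes, 1126 (46.6%) held 1 peak and 938 held 2 to 4, while 352 genes (14.6%) held 5 or more, and 2451 of all mid-body peaks (40.5%) were theirs. Neighbouring peaks of a gene were close: 1795 of the 3630 gaps from the end of a peak to the start of the next (49.4%) were of at most 500 bp. Peaks of 1 gene are therefore not independent of each other.

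Among 9 of the named genes with the most peaks, 3 kinds of layout were present. In the first, many of the peaks lay where RefSeq places the 3′ end of the gene. Ubn2, which encodes a subunit of a histone chaperone complex for H3.3, had 23 mid-body peaks between 71.4% and 86.5% of the gene, with folds from 2.03 to 4.73 and pileups from 13 to 47. Its RefSeq body ends 12.1 kb earlier, and 15 of the 23 lie in its last 10%. Ipmk, an inositol phosphate kinase, had 18 peaks between 21.4% and 44.3% of an 85.6 kb gene, with pileups from 12 to 54. RefSeq ends Ipmk 47.4 kb earlier, and 15 of its 18 peaks lie in the last 10% of that body. Nufip2, which encodes an RNA-binding partner of FMRP, had 17 peaks within 7.82 kb, with folds from 2.11 to 3.80, and 7 of them lie in the last 10% of the RefSeq body. Mapk6 had 14 peaks with folds from 2.098 to 7.45, of which 6 were in the last 10% of its RefSeq body and 3 beyond its end. None of these 4 genes held a last-10% peak by the authors' gene bodies.

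In the second layout the peaks ran over a long stretch of the gene, partly in clusters. Ints6, a subunit of the Integrator complex, had 16 peaks over 51.7 kb, with pileups from 22 to 63 and folds from 2.05 to 4.86. Ppp3cb, a catalytic subunit of calcineurin, had 13, with pileups from 29 to 58 and folds from 1.93 to 3.71, and 6 more in its last 10%. Ube2w, a ubiquitin-conjugating enzyme that modifies protein N-termini, had 14 with folds from 1.98 to 7.68, and Rimklb, an amino acid ligase gene, had 14 with folds from 2.09 to 5.50. All or most of these peaks were mid-body in RefSeq too: 16 of 16 in Ints6, 13 of 13 in Ppp3cb, 14 of 14 in Ube2w and 12 of 14 in Rimklb. Joining peaks at most 500 bp apart left 13 in Ints6, 7 in Ppp3cb, 6 in Ube2w and 7 in Rimklb, so Ints6 was the least clustered of them.

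Ganc, an alpha-glucosidase gene, stood apart from both. Its 13 peaks lay between 19.7% and 37.7% of a 57.8 kb gene, far from the 3′ end, over inputs of at most 4.25. Their median fold of 5.12 (range 3.05 to 7.82) was the largest of the 9 genes, and their median pileup of 15 was the lowest. The largest folds in the run, 7.68, 7.62 and 7.82, belonged to 3 neighbouring peaks at 22.6% to 23.4% of the gene, with 23, 22 and 19 tags. All 13 were mid-body in the RefSeq body. Joining peaks at most 500 bp apart left 4. The authors' table also pairs all 13 with another gene, as it does every mid-body peak of Ubn2, Nufip2, Ints6, Ppp3cb and Ube2w.

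**Figure D3:**
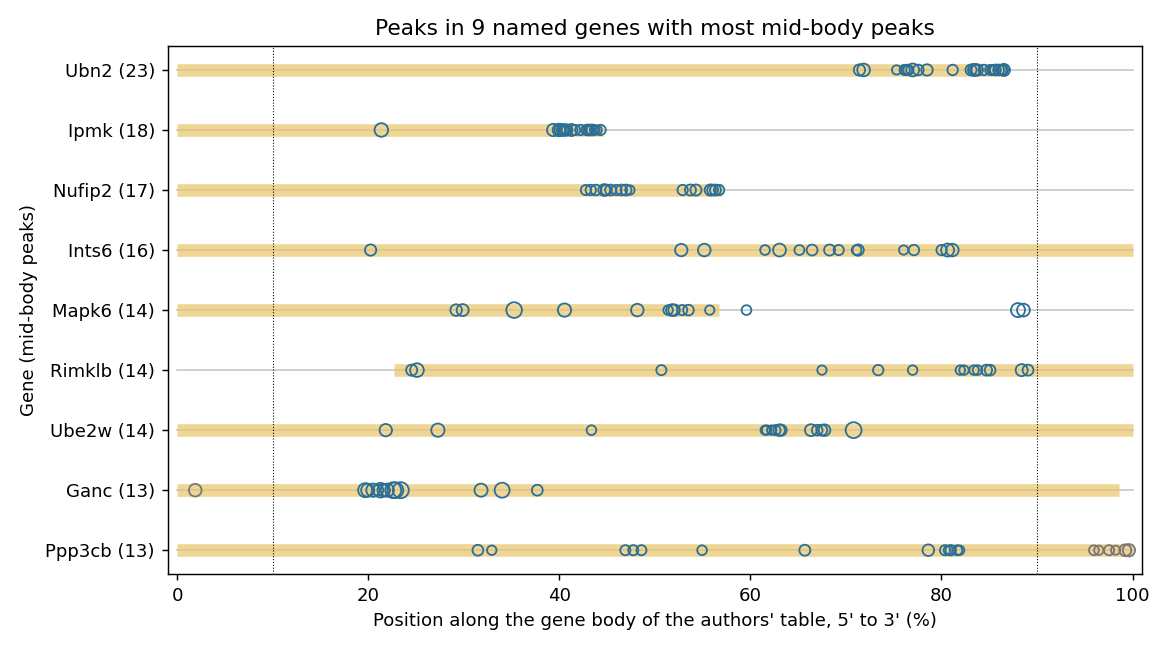
Positions of all peaks in 9 of the named genes with the most mid-body peaks, in percent of the authors' gene body from 5′ to 3′ (the number after each name is its count of mid-body peaks); blue circles are mid-body peaks, grey circles first-10% and last-10% peaks, circle size grows with fold, the grey line is the authors' gene body, the yellow band RefSeq's, and dotted lines mark 10% and 90%. Ubn2, Ipmk, Nufip2 and Mapk6 have peaks in the last 10% of the yellow band or beyond its 3′ edge, while the peaks of Ints6, Ube2w, Ganc and Ppp3cb lie within it.

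Many genes with a mid-body peak held a peak in the last 10% as well. Of the 2416 mid-body genes, 1170 also held a last-10% peak, which is 48.4% (46.4 to 50.4) of them and 50.04% of the 2338 genes with a last-10% peak. Among all autosomal protein-coding RefSeq genes of at most 100 kb, 11.7% held a last-10% peak. The share of 48.4% depends on the peaks kept: it was 27.0% without peaks paired with another gene and 34% at a −log10 q of at least 5. First-tenth peaks were present in 284 mid-body genes, 11.8% of these and 71.7% of the 396 genes with a first-10% peak. The share of all genes with a first-10% peak was not computed, and the 11.7% above is for last-10% peaks only. Genes with both mid-body and last-10% peaks held 3338 mid-body peaks, a mean of 2.85 a gene, with a median pileup of 27 over an input of 7.79. The genes without a last-10% peak held 2708, a mean of 2.17, with a median of 21 over 4.25, and their median fold was higher, 3.75 against 3.18. Gene length was alike in both, with medians of 29.1 kb without and 27.7 kb with a last-10% peak.

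Within the 1170 genes that hold both, the best mid-body peak (by −log10 q) had a larger fold than the best last-10% peak in 791 (67.6%). The medians were 3.81 in the mid-body and 3.02 in the last 10%. The input was lower at the mid-body peak in 931 genes (79.6%), with medians of 6.37 and 12.7. The pileup was higher at the mid-body peak in 191 genes (16.3%), with medians of 26 and 40, so the larger folds stood over fewer RIP tags. In −log10 q the mid-body peak was ahead in 550 of the 1170 genes (47.0%).

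For gene groups, the share of members with a mid-body peak is set beside the background: 11.2% of the 18352 autosomal protein-coding RefSeq genes of at most 100 kb held one, and 11.7% held a last-10% peak. A transcript must be covered to be called, and the part of transcript abundance in these shares was not tested, since levels of genes without a peak were not analysed here. The lists were chosen with earlier results of these data known and were not matched to the background in gene length. Their shares and intervals are therefore a description and no test against it. Of 631 genes on the 12 lists used, 128 held a mid-body peak, 82 of them with a last-10% peak too. The median best fold over all mid-body genes was 4.21. How far list counts moved depended on the choice of peaks. At a −log10 q of at least 5, 3 of the 12 stayed within 1.5 times. It was 4 without peaks paired with another gene and 5 with genes of at most 50 kb. With a pileup of at least 20 it was 8, within 20% to 80% of the gene 9, with RefSeq bodies 11 and with merged peaks 12. The order of the lists was not compared across these choices and is not settled.

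Genes of mRNA decay and P-bodies had the highest share of the 12 lists, 19 of 43 eligible members, 44.2%, with an interval (29.1 to 60.1) that meets those of most other lists, and with 41.9% holding a last-10% peak. Their median best fold was 4.30, close to that of all mid-body genes. Members ranged from a best fold of 1.95 to one of 6.94. Cnot7, a catalytic CCR4-NOT subunit, had the highest, from 17 tags against 1.59, and Cnot6l held 10 peaks, the largest at 6.07. Patl1, a decapping activator, had a fold of 5.76 from 17 tags against 2.12. The decapping genes Dcp1a and Dcp2 had best folds of 4.55 and 4.54, the GW182 gene Tnrc6a one of 5.11, and Ddx6, the P-body helicase, held 9 peaks with a best fold of 3.53. Genes of the LSM rings ran from 4.33 in Lsm2 down through 3.07 in Lsm3 to 2.19 in Lsm1, and the deadenylase partners Tob1, Tob2 and Btg1 had 4.30, 2.19 and 1.96. Over all members of the list, eligible or not, 21 held a mid-body peak. Leaving out peaks that the authors also paired with another gene took these 21 genes to 12, without Cnot7 and Patl1. A −log10 q of at least 5 left 11.

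Germline and translational RNA-binding proteins had mid-body peaks in 17 of 47 eligible genes, 36.2% (22.7 to 51.5), and last-10% peaks in 55.3%. Lin28b, the paralog of Lin28a, had the largest fold, 10.5 from 17 tags against 0.708. That peak depends on the gene model: with RefSeq bodies Lin28b had no mid-body peak, and within 20% to 80% of the gene its best fold was 5.86. Cpeb4, a cytoplasmic polyadenylation factor, and Ythdc2, a meiotic RNA helicase, both had 7.31, from 12 tags against 0.779 and 9 against 0.369, the genome background. Piwil4, a PIWI protein gene, had more support, 36 tags against 4.25, a fold of 7.05 (−log10 q 15.9). Dazl, the germ cell translation regulator, and Elavl1, the ubiquitous member of the ELAVL family, each held 6 peaks with a best fold of 4.31, from 43 tags against 9.20 and 46 against 9.91. Ddx4, the germ cell helicase also called Vasa, had 38 tags against 14.9, a fold of 2.46. Germ cell RNA regulators with tall, low-fold peaks were thus on the same list as genes whose peaks stood over nearly no input.

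Genes of oocytes and follicle formation had mid-body peaks in 7 of 27 eligible genes, 25.9% (11.1 to 46.3), and last-10% peaks in 22.2%. Kit, the receptor for KIT ligand in oocytes, had a fold of 10.2 from 13 tags over the genome background, and Tbpl2, an oocyte paralog of the TATA-binding protein, 9.36 from 17 tags against 0.924. Ooep, a subunit of the subcortical maternal complex, held 7 peaks with a best fold of 4.96 from 25 tags against 4.25. Lhx8, an oocyte homeobox factor, also held 7, and its best was 3.33 from 40 tags against 11.3. Foxo3, which holds primordial follicles dormant, had 42 tags against 15.6, a fold of 2.59. With RefSeq bodies the best fold of Ooep was 3.23.

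Meiosis genes had mid-body peaks in 9 of 38 eligible members, 23.7% (11.4 to 40.2), with a median best fold of 5.03. Last-10% peaks were held by 28.9% of the 38. Terb2, part of the complex that ties telomeres to the nuclear envelope, had 15 tags against 0.708, a fold of 9.37. Hormad2 and Hormad1, axis proteins of meiotic chromosomes, had 8.04 from 10 tags over the genome background and 7.33 from 18 tags against 1.59. Spo11, the enzyme that makes meiotic breaks, had 9 tags over the genome background, a fold of 7.31. Tex12, a synaptonemal complex gene, had 31 tags against 4.95, a fold of 5.37. DNA repair and cell cycle genes had a mid-body peak in 10 of 48, 20.8% (10.5 to 35.0), led by the helicase gene Blm at 6.70, the kinase gene Cdk2 at 6.26 (23 tags against 2.83) and the phosphatase gene Cdc25c at 5.27. Without peaks paired with another gene Hormad1 and Blm had none left, and with RefSeq bodies Cdk2 had none. Counts over all members, eligible or not, were 10 for meiosis and 11 for repair and cell cycle. At a −log10 q of at least 5 they were 7 and 4.

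Ubiquitin ligase and proteasome genes reached 17 of 44, 38.6% (24.4 to 54.5), with last-10% peaks in 34.1%. Ube2w led with 7.68 from 23 tags against 2.12, and the ligase gene Rnf2 had 6.48 from 33 tags against 4.25 and held 11 peaks. Without peaks paired with another gene the list went from 17 genes to 5, and neither Ube2w nor Rnf2 stayed. Genes of PI3K, FOXO and mTOR signalling, the pathway that governs activation of primordial follicles, reached 9 of 25, 36.0% (18.0 to 57.5), with last-10% peaks in 56.0%. After Kit, the lipid kinase gene Pik3c3 had 6.44 from 10 tags against 0.708 and the kinase gene Akt2 5.29 from 23 against 3.54. Pdpk1, the kinase that activates AKT, held 6 peaks with a best fold of 5.04 from 29 tags, and Rheb, the GTPase that activates mTORC1, had 48 tags against 13.4, a fold of 3.39.

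Splicing genes reached 17 of 64, 26.6% (16.3 to 39.1), with a low median best fold of 2.98 and last-10% peaks in 35.9%. Hnrnpc, which encodes a U-tract binding protein of nascent transcripts, led with 9 peaks and a fold of 5.83 from 42 tags against 6.37. Srsf10 had 5.34 from 17 tags, Luc7l2, a U1 snRNP-associated factor, 4.95 from 39 against 7.08, and Srsf1 held 11 peaks with a best fold of 2.98. Chromatin and transcription genes reached 15 of 53, 28.3% (16.8 to 42.3), with the histone methyltransferase gene Whsc1 at 7.45 from 17 tags, the remodeler gene Smarca4 at 5.86 from 9 and the dioxygenase gene Tet3 at 4.70 from 17. Last-10% peaks were held by 37.7% of the 53. Without peaks paired with another gene the splicing list went from 17 genes to 9 and the chromatin list from 15 to 6, with Luc7l2, Whsc1, Smarca4 and Tet3 among those lost, and at a −log10 q of at least 5 they held 9 and 4.

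The lists at the low end were cytosolic ribosomal proteins, with 1 of 74 eligible genes (1.35%, 0.0342 to 7.30), and somatic ovary markers, with 1 of 40 (2.50%, 0.0633 to 13.2). The members were Rpl11, a large-subunit protein gene, with 37 tags against 14.2 and a fold of 2.51, and Maf, a transcription factor gene, with 33 against 14.2 and a fold of 2.24. With RefSeq bodies Rpl11 was no longer mid-body, which left no ribosomal gene, and the best fold of Maf was 4.88. At a −log10 q of at least 5 neither list had a member. The ribosomal interval lies below the background of 11.2%, and the somatic one reaches above it. This is no test, since the lists were chosen with earlier results of these data known. The RIP pileup could not pass 100 tags, which limits the fold over a deeply covered transcript. The part of this limit in the low ribosomal share was not tested. Neuronal markers had 3 of 11 (27.3%, 6.02 to 61), and their peaks were small: the synaptic gene Snap25 and the neurofilament gene Nefm each had 8 tags over the genome background, a fold of 6.58, and the kinase gene Camk2a had 11 against 1.42, a fold of 4.97. No eligible neuronal marker held a last-10% peak. Nefm was not mid-body with RefSeq bodies, and the best fold of Snap25 was 3.73 without peaks paired with another gene.

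**Figure D4:**
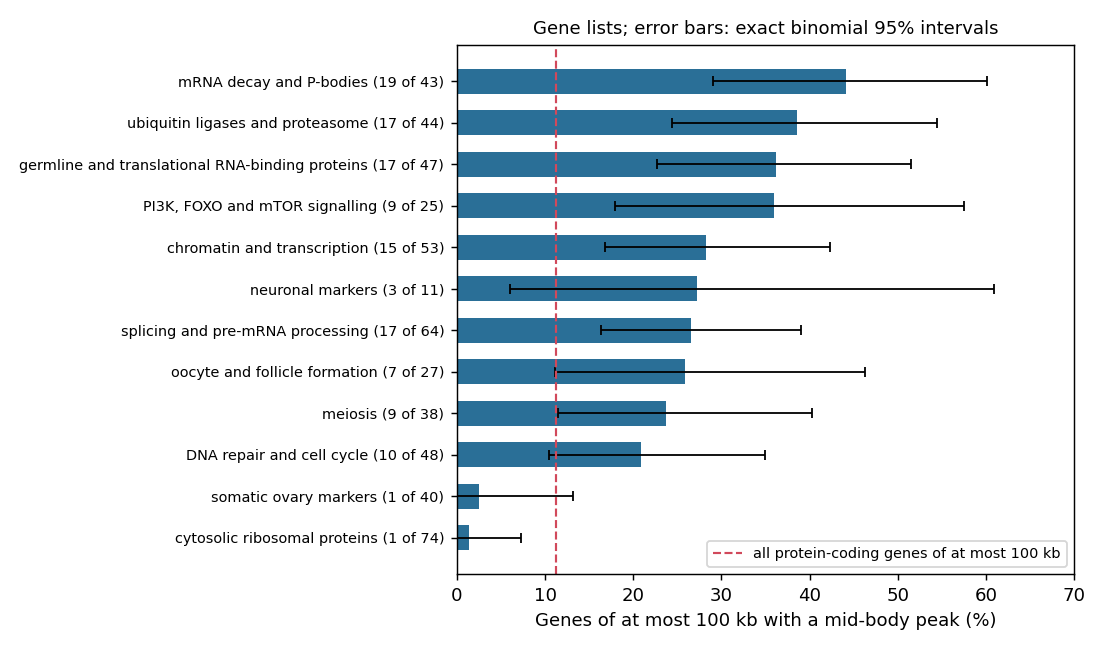
Share of eligible genes (autosomal, with a RefSeq body of at most 100 kb) that hold a mid-body peak, in percent, for the 12 gene lists; bars are shares, whiskers exact 95% binomial intervals, and the dashed line is the background of 11.2%. Bars run from 1.35% for ribosomal proteins to 44.2% for mRNA decay genes. The lists were chosen with earlier results of these data known.

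The labelled tissue could be checked only through genes with peaks, since no expression table was analysed here. Of 15 germ cell markers, 4 held a mid-body peak (Ddx4, Dazl, Lhx8 and Kit). None of 13 granulosa, 9 stromal, 5 endothelial, 5 epithelial, 4 erythroid and 4 immune markers did, and 1 of 5 neuronal markers did (Snap25). Counting peaks anywhere in exactly 1 gene of any length and chromosome, 5 of the 15 germ cell markers had one, with Bmp15 added, and so did Fshr among granulosa markers, Ptch1 among stromal, Tek among endothelial, Epcam and Cdh1 among epithelial and Syt1 among neuronal markers. A missing peak is not a missing transcript, so these counts do not give cell proportions. The background for a mid-body peak was 11.2% of autosomal protein-coding RefSeq genes of at most 100 kb. In groups of 4 to 13 markers, finding none is close to that share, and the counts were not tested against it. No background was computed for peaks anywhere in a gene.

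At each limit of the rule, the folds just inside and just outside spanned overlapping ranges. Just within the length limit, peaks in Zcchc11 (99995 bp), Vmp1 (99971 bp) and Lonp2 (99830 bp) had folds of 4.88, 5.85 and 8.18. Just beyond it, a peak in Abi1 (100168 bp) had 2.25 and a pair in Snx13 (100280 bp) 4.80 and 8.03. At the 10% limit, the nearest inside were Trim52, Gtpbp10 and Sap30 with folds of 4.44, 3.30 and 2.33, and the nearest outside Gnb1l, Dcun1d5 and Paox with 3.36, 2.09 and 3.41. At the 90% limit, Tmem80, Nlrp4b and Henmt1 inside had 3.53, 3.75 and 6.00, and Bclaf1, Cd9 and Rpl39l outside had 2.17, 4.30 and 2.04.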

How the data were processed

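RNA from 1 ELAVL2 pulldown and 1 input sample was compared. The tools named, per the submitters' processing notes, are MACS2 (2.1.0.20140616), TopHat2 (2.0.8b), FastQC (0.11.2) and CASAVA (1.8.2), and the build is mm10. Per the file headers, MACS2 used a q-value limit of 0.05, an extension of 50 bp, 1 tag per position and the larger of local input windows of 1000 and 10000 bp, and 3 lanes were combined for each sample. For each peak the authors deposited a pileup (signal), a fold enrichment (ratio over input, pseudocount 1) and −log10 p and −log10 q values. The making of their gene table is described neither there nor in the labels.

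Repeated rows of that table (42176 of 85730) were dropped and 28179 of 28332 peaks had a gene. The input level was computed as pileup plus 1, over fold, minus 1. Exact Clopper-Pearson and Poisson intervals (95%) were computed with Python 3.11.15, numpy 2.4.6, pandas 2.3.3 and scipy 1.17.1, and figures with matplotlib 3.10.9. Scripts were tested on simulated data. With 1 sample an arm no test between conditions was made, and the authors' q-values compare 2 libraries, not conditions.

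The members and gene lists were chosen with earlier results of these data known. Named genes have approved symbols and are the 10 peaks leading by fold among those with 20 tags or more, the 10 leading by −log10 q, the 10 genes with most peaks, the 5 longest peaks, the 3 of largest fold per list and the 3 on either side of each limit; further list members, and the genes with printed sequence, were named after their values were seen. A few of the genes so chosen are not reported here. Alternatives were a stricter q, a pileup minimum, merged neighbouring peaks, narrower length and position limits, peaks paired with no other gene, RefSeq bodies and no pseudocount. Exon and intron annotation and the genome sequence were not used here.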

Additional observations from a re-analysis of the deposited data

How the results depend on the processing

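Of 56 recomputed summary values, 36 moved by more than their counting interval (counts: by more than 1.5 times) and 20 did not. With a −log10 q of at least 5, 2233 peaks were left, the median fold was 4.66, the share at a fold of at least 5 was 44.1%, the share at 70% to 90% was 38.7%, the share of genes with a last-10% peak was 34%, and 68 list genes were left of 128. With a pileup of at least 20, 3735 peaks were left, with a median fold of 2.77, shares of 6.99% at a fold of at least 5, 0.0803% at low input and 46.9% at 70% to 90%, and 54.9% of genes with a last-10% peak. Merging peaks at most 500 bp apart gave a median fold of 3.51 and shares of 24.4%, 15.5% and 38.3% for fold, low input and 70% to 90%. Leaving out peaks that cross a gene end or are paired with another gene left 3179 peaks, 30.04% at 70% to 90%, 27.0% of genes with a last-10% peak and 68 list genes. Genes of at most 50 kb gave a median fold of 3.19, a median pileup of 28, shares of 18.4%, 10.9% and 43.8% in the same order, and 78 list genes. Limits of 20% and 80% gave a median fold of 3.53, a median pileup of 23.5, and shares of 24.2% for fold and 15.8% for low input. RefSeq bodies gave 23.4%, 15.6% and 42.1% in that order and 46% of genes with a last-10% peak. Without the pseudocount the median fold was 3.89 and the share at 5 or more 37.1%, and 0 of 57 named genes kept the value of its best fold (Kit 35.3 in place of 10.2, Hormad2 27.1 in place of 8.04, Ythdc2 24.4 in place of 7.31). Some alternatives select on the value, position, gene length or pairing, and others change the formula or join peaks; the cause of the shifts was not tested further.

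No paired analysis was possible because there is 1 RIP and 1 input sample and the labels carry no replicate numbers. Of 57 named genes, 32 were lost with the 50 kb limit, 25 without paired neighbours, 18 at a pileup of at least 20, 7 with RefSeq bodies, 6 with limits of 20% and 80%, and 5 at the stricter q. The fold of the low-input peaks rests on an input level worth at most 1 tag. In 298 of these 840 peaks that level was the genome-wide background. The peak list holds called regions only, so enrichment below the threshold is not seen.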

Other observations

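Mid-body peaks on the sex chromosomes were outside the rule. The X chromosome held 381, with a median fold of 3.43 and a median pileup of 27, and the Y chromosome held 5, with medians of 3.36 and 9.

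Genes without an approved symbol held 818 of the 6046 peaks, among them the peaks of largest fold. The gene ENSMUSG00000108030, which the table lists without a symbol, had 31 tags against an input of 0.708, a fold of 18.7 (−log10 q 31.1), at chr6:116202160-116202244. Gm8126 on chromosome 14 had 22 tags against 0.708, a fold of 13.5. The peak in 1700049E17Rik1 on the same chromosome had 22 tags against 0.885, a fold of 12.2, and shares its length, summit offset, pileup and fold with another peak; the counts at either place are uncertain. Such identical pairs made up 14 of the 1736 mid-body peaks of at least 100 bp (0.806%) and 138 of 9594 over all peaks (1.44%).

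The mid-body share of peaks in short autosomal genes ranged from 42.4% on chromosome 19 to 52.3% on chromosome 12.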
